A study of Mus musculus with 24 samples.

Results

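The genes described here are 10 subunits and close partners of activator protein 1 (AP-1), measured in cultured mouse muscle paced by light. They were taken by gene symbol and comprise the Fos family (Fos, Fosb, Fosl1, Fosl2), the Jun family (Jun, Junb, Jund), Atf3, and the small Maf genes Maff and Mafk. All 10 were found among the 56941 genes of the tables, and all 10 were among the 13318 genes kept by the filter on low counts. Tissues were 2D sheets of C2C12, a line of mouse myoblasts able to fuse into contracting fibers, grown on fibrin hydrogel. Every tissue, control included, carried the ChR2::tdTomato genotype, a blue light-gated ion channel tagged with a red fluorescent protein, and was differentiated in horse serum with IGF-1. Light was given for 30 min per day at 1, 4, or 10 Hz, or not at all (control), and each of the 4 conditions comprised 6 libraries. All groups derive from a single engineered line, tissues made this way also twitch without light, and the interval between the last light session and lysis is not given in the sources used here. Replicates were biological by the study's account, grown in wells of multiwell plates, so p-values measure the spread between wells of a single line.

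AP-1 is a pair of basic leucine zipper proteins that binds short DNA elements near its target genes. Jun proteins pair with themselves or with Fos proteins, Fos proteins need a Jun partner, Atf3 can pair with Jun proteins, and the small Maf proteins, which lack an activation domain, pair mainly with NRF2-type and BACH factors and can also pair with Fos. Several of these genes are immediate-early genes, meaning that their mRNA rises and decays quickly after calcium entry, growth factors, stretch, or stress, and in muscle they are known for their response to contraction.

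To show what lies before the canonical transcripts of these genes, the 500 bases upstream of each start were read from GRCm39. They were read on the strand of the gene and searched on both strands for AP-1 and serum response elements. The TRE (TGACTCA), to which Fos and Jun pairs bind, was in 0 of the 10 windows and in 7.57% of 21766 windows of the same length over all protein-coding genes. The CRE (TGACGTCA) was in 2 of 10 and in 1.96% of all windows, the Jun-type TRE (TGACATCA) in 1 of 10 and in 3.72%, and the CArG box, the element of serum response factor, in 2 of 10 and in 2.76%. These matches are descriptions of sequence, not of binding. The stretches below hold the 5 matches in capitals, because they separate Fos and Fosb, with a CArG box, from Jun, with its Jun-type TRE, and from Jund and Maff, with a CRE.
Fos: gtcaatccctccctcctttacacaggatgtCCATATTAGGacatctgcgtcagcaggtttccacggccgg
Fosb: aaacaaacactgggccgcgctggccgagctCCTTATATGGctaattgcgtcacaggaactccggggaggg
Jun: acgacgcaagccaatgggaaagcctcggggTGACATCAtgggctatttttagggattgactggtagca
Jund: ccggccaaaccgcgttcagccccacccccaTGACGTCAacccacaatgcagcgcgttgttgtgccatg
Maff: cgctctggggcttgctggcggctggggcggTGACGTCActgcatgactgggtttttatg
The Fos stretch lies at chr12:85520325-85520394 (plus strand), the Fosb stretch at chr7:19044203-19044272 (minus strand), and the Jun stretch at chr4:94940467-94940534 (minus strand). The Jund stretch lies at chr8:71151355-71151422 and the Maff stretch at chr15:79231661-79231719, both on the plus strand. The annotated Maff gene starts at chr15:79230821, so its stretch lies before the canonical transcript but inside the gene. The CArG box began 303 bases upstream of the transcript start in Fos and 266 in Fosb, the Jun-type TRE 45 bases upstream in Jun, and the CRE 214 bases upstream in Jund and 29 in Maff. Jun, Junb, and Jund each have a single exon, and the other members have 3 or 4.

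Library totals ranged from 4.09 M to 15.2 M counts (M, mega; median 7.48 M), and no replicate pair agreed within sampling noise. Muscle markers were abundant in all libraries, with Acta1 at 2560 to 7198 TPM (a level per transcript length, scaled to the library) and Myog at 248 to 666 TPM. Of the listed markers of other cells, Ptprc was at 0 in 23 of 24 libraries, Adgre1 in 22, Plin1 in 21, Ibsp in 22, and Cdh5 in 15. Others of the same lists were found in more libraries at low levels. Pecam1 was at 0 in 4 libraries (at most 0.735 TPM), Bglap in 5 (6.12 TPM), Adipoq in 10 (1.07 TPM), Tek in 10 (0.127 TPM), and Csf1r in 0 (1.25 TPM). Cd68 reached 86.2 to 168 TPM and Runx2 6.32 to 23.2 TPM. Muscle marker sums were 7091 to 8730 CPM (counts scaled to the library total) in control, 9444 to 12704 CPM at 1 Hz, 9717 to 14614 CPM at 4 Hz, and 7282 to 10553 CPM at 10 Hz. Of the 8 muscle markers 4, 5, and 2 were called higher at 1, 4, and 10 Hz by the rule given below (9.34%, 10.5%, and 1.24% of all genes). Their part in the changes below was not tested. The summed level of the 6 myoblast and cell cycle markers overlapped between conditions, at 39.5 to 62.8 CPM in control, 37.5 to 51.3 CPM at 1 Hz, 31.1 to 56.4 CPM at 4 Hz, and 48.0 to 58.5 CPM at 10 Hz. Of these markers Pax7 was called higher at 1 Hz (9.34% of all genes were), and at 4 Hz Pax7, Mki67, and Top2a were called higher (10.5%) and Myf5 lower (9.61%). Runx2 was called higher at 1 Hz (log2 fold change 0.61) and Csf1r, at 1.49 CPM in control, lower at 4 Hz. None of these markers was called at 10 Hz, and their part in the changes was not tested. Libraries stood apart in small RNAs without a poly(A) tail, of which 15 of 19 listed names were found. Their summed share was 91.2 to 163 CPM in control, 14.4 to 67.5 CPM at 1 Hz, 18.1 to 46.5 CPM at 4 Hz, and 36.0 to 265 CPM at 10 Hz, so that neither 1 Hz nor 4 Hz overlapped control. Low-input samples were prepared by ribodepletion, the labels do not say which, and preparation and stimulation cannot be told apart for these contrasts. In bulk tissue, fewer cells that express a gene and less of its mRNA per cell cannot be told apart either.

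At 1 Hz, Fos fell while Fosb, Jund, Atf3, and Mafk rose. At 4 Hz, Fos, Fosb, and Jun fell while Junb rose. At 10 Hz, only Fos passed both limits, and it fell. A gene was called at an adjusted p below 0.05 in the edgeR quasi-likelihood test with Benjamini-Hochberg (BH) adjustment and an absolute log2 fold change above 0.5. On this rule 5 of 10 members were called at 1 Hz (18.3% of all genes tested), 4 higher (9.34% of all genes) and 1 lower (8.99%). On log2(TPM + 1) limma called 1 higher (Fosb) and 2 lower (Fos and Jun) there, with Jund, Atf3, and Mafk just under the fold limit. At 4 Hz 4 of 10 were called (20.1% of all genes), 1 higher (10.5%) and 3 lower (9.61%). At 10 Hz 1 of 10 was called (1.86% of all genes), none higher (1.24%) and 1 lower (0.623%). No member was higher at 10 Hz at an unadjusted p below 0.05 either, nor by DESeq2 or limma. The median log2 fold change of the members was 0.31 at 1 Hz, -0.04 at 4 Hz, and -0.05 at 10 Hz, against medians of -0.01, -0.01, and -0.01 over all genes. These 3 comparisons share the 6 control libraries.

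**Figure D1:**
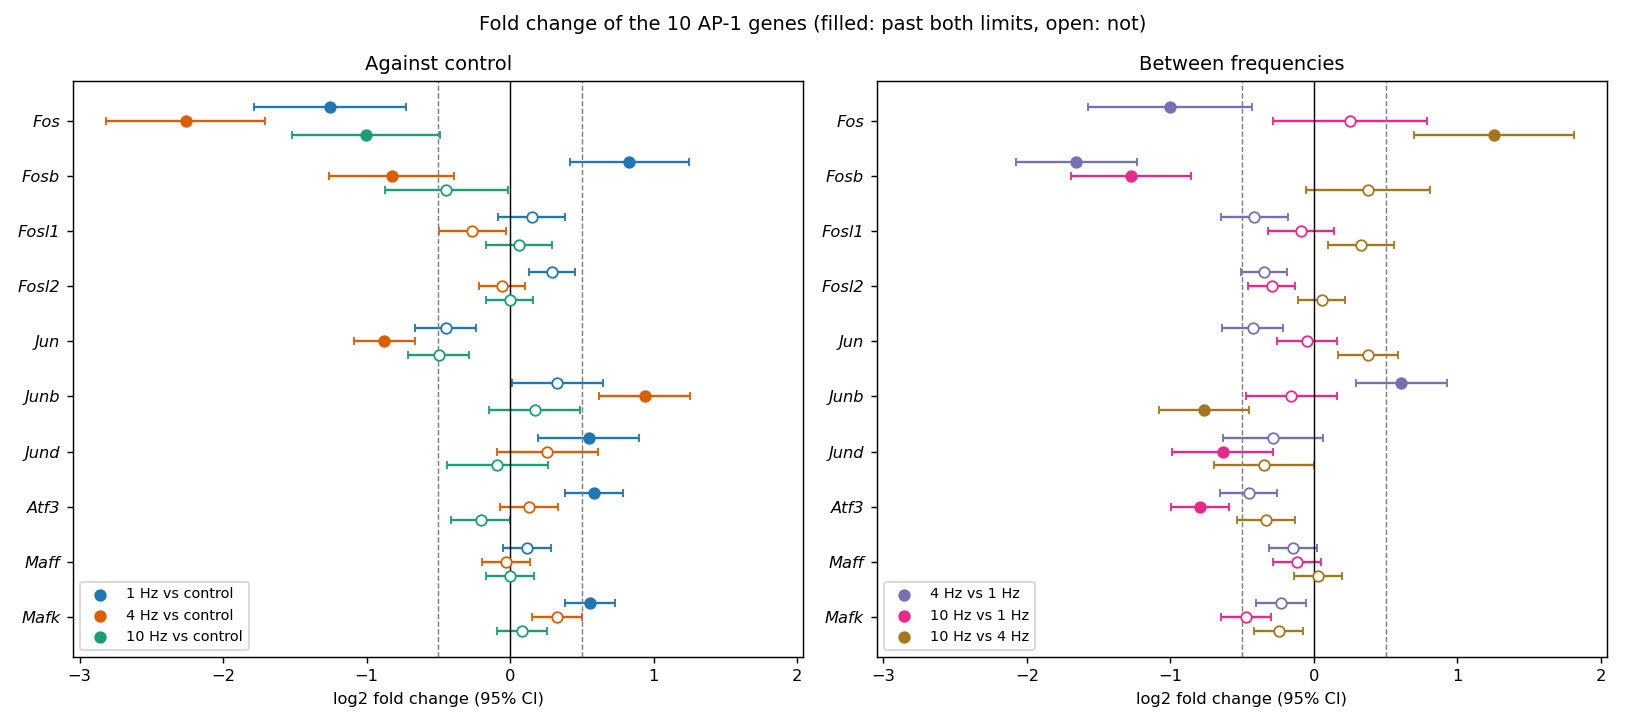
Log2 fold change (x axis) of the 10 AP-1 genes (y axis) with 95% intervals from edgeR, against control on the left and between frequencies on the right. Filled points passed both limits (dashed lines mark 0.5 either way), and the largest fall was that of Fos at 4 Hz, at -2.26.

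Between frequencies, 3 of 10 members were called for 4 Hz against 1 Hz (3% of all genes), with Junb higher (1.59% of all genes were) and Fos and Fosb lower (1.4%). For 10 Hz against 1 Hz, 3 of 10 were called (17.9% of all genes), all of them lower (8.49%): Fosb, Jund, and Atf3. No member was higher there (9.45% of all genes), nor at an unadjusted p below 0.05, nor by DESeq2 or limma. For 10 Hz against 4 Hz, 2 of 10 were called (11% of all genes), with Fos higher (5.32%) and Junb lower (5.64%). An adjusted p below 0.05 without the fold limit was met by 7, 5, and 6 members in these 3 comparisons. The share of all genes on that rule was not counted. An unadjusted p below 0.05 was met by 3585, 6133, and 4741 of the 13318 genes tested, so passing without the fold limit was common.

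**Figure D2:**
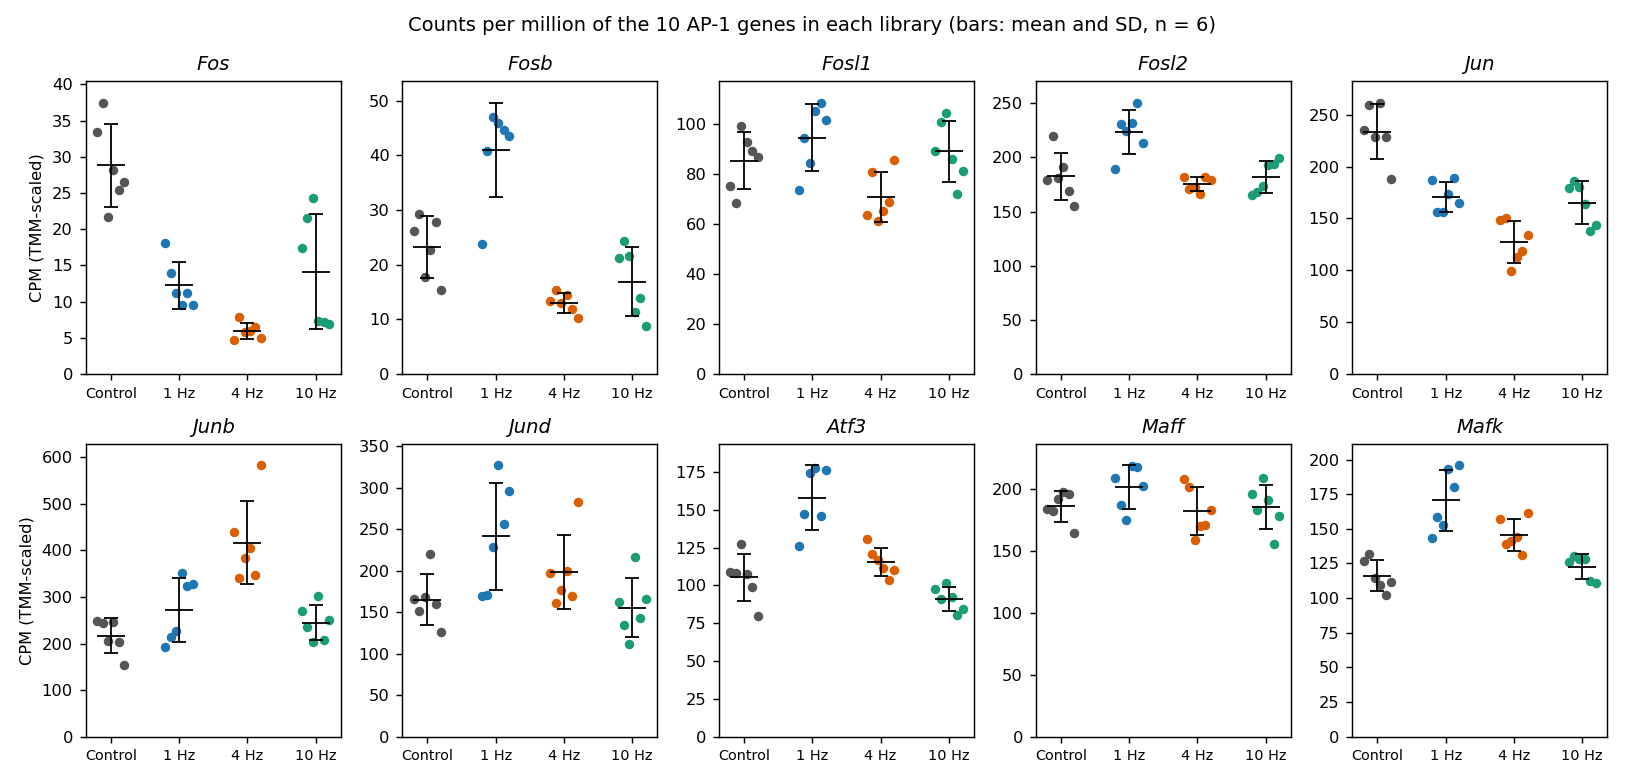
CPM (y axis, TMM-scaled, from 0) of each AP-1 gene in the 24 libraries, by condition (x axis); points are libraries and bars the mean and SD (n = 6). Fos was highest in control, Fosb at 1 Hz, and Junb at 4 Hz.

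Fos encodes c-Fos, the best known immediate-early partner of Jun proteins. Its level was 21.7 to 37.5 CPM in the 6 control libraries (median 27.4), 9.53 to 18.1 CPM at 1 Hz (median 11.2), and 4.73 to 7.84 CPM at 4 Hz (median 5.91). The 10 Hz libraries held 17.5, 21.6, 24.3, 7.36, 7.16, and 6.94 CPM. All 1 Hz and 4 Hz libraries thus lay below every control library, and all 4 Hz libraries lay below every 1 Hz library. The 10 Hz values fell into 3 of 17.5 to 24.3 CPM and 3 of 6.94 to 7.36 CPM, the latter inside the 4 Hz range. Of the 6 10 Hz libraries 5 lay below every control library. The mean was 28.8 CPM (SD 5.71) in control, 12.3 CPM (SD 3.28) at 1 Hz, 5.99 CPM (SD 1.12) at 4 Hz, and 14.1 CPM (SD 7.97) at 10 Hz, with n = 6 in each.

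Fos fell by 1.26 on the log2 scale at 1 Hz (SE 0.25, edgeR BH adjusted p = 0.000473), to 41.8% of control. It fell by 2.26 at 4 Hz (SE 0.27, edgeR BH adjusted p = 7.49e-07), to 20.9% of control, and by 1.01 at 10 Hz (SE 0.25, edgeR BH adjusted p = 0.0174). The order of levels was control, 10 Hz, 1 Hz, and 4 Hz, of which 10 Hz and 1 Hz did not differ beyond their spread (log2 difference 0.25, 95% interval -0.28 to 0.79, edgeR BH adjusted p = 0.464). The 4 Hz level was below that at 1 Hz (log2 difference -1.003, edgeR BH adjusted p = 0.0171), and the 10 Hz level above that at 4 Hz (1.25, edgeR BH adjusted p = 0.00183). The fall at 10 Hz missed the threshold without control library 2 (log2 fold change -0.91, edgeR BH adjusted p = 0.0617), and when only control and 10 Hz libraries were fitted (-1.004, edgeR BH adjusted p = 0.0615).

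Fosb encodes FosB, whose short splice form ΔFosB is known to last longer in stimulated tissue than other Fos proteins. The 2 forms were not told apart in these gene totals. Fosb ranged from 15.4 to 29.3 CPM in control (median 24.5), from 23.8 to 47.0 CPM at 1 Hz (median 44.1), from 10.2 to 15.5 CPM at 4 Hz (median 13.2), and from 8.83 to 24.4 CPM at 10 Hz (median 17.6). Of the 1 Hz libraries 5 lay above every control library, of the 4 Hz libraries 5 lay below every control library, and all 4 Hz libraries lay below every 1 Hz library. The 3 10 Hz libraries with high Fos also had the higher Fosb, at 21.2, 24.4, and 21.6 CPM against 11.4, 14.0, and 8.83 CPM in the other 3.

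Fosb rose by 0.83 on the log2 scale at 1 Hz (SE 0.20, edgeR BH adjusted p = 0.00216), to a mean of 41.0 ± 8.65 CPM from 23.2 ± 5.63 CPM in control (SD, n = 6). It fell by 0.83 at 4 Hz (SE 0.21, edgeR BH adjusted p = 0.00272), to 13.0 ± 1.85 CPM (SD, n = 6). At 10 Hz the log2 fold change was -0.45 (95% interval -0.87 to -0.02, edgeR BH adjusted p = 0.214). The difference between 4 and 1 Hz was -1.66 (SE 0.20, edgeR BH adjusted p = 1.03e-05), the largest between frequencies among the 10 genes, and that between 10 and 1 Hz was -1.28 (SE 0.20, edgeR BH adjusted p = 2.93e-05). Fos and Fosb, the pair with a CArG box upstream, moved in opposite directions at 1 Hz and in the same direction at 4 Hz.

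Fosl1 (Fra-1) and Fosl2 (Fra-2) encode the Fos-related antigens, which lack the activation domain of c-Fos. Fosl1 ranged from 68.4 to 99.1 CPM in control, 73.4 to 108 CPM at 1 Hz, 61.3 to 85.6 CPM at 4 Hz, and 72.01 to 104 CPM at 10 Hz, with overlap between all conditions. Its log2 fold changes against control were 0.15, -0.26, and 0.06 at 1, 4, and 10 Hz, none of them called. Relative to 1 Hz its level was lower at 4 Hz by 0.41 on the log2 scale (edgeR BH adjusted p = 0.0151), below the fold limit.

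Fosl2 ranged from 156 to 219.7 CPM in control, 189 to 251 CPM at 1 Hz, 166 to 182 CPM at 4 Hz, and 165 to 199.7 CPM at 10 Hz. Of the 1 Hz libraries 4 lay above every control library, and the 6 4 Hz libraries lay within the control range and below every 1 Hz library. Its log2 fold change at 1 Hz was 0.29 (SE 0.08, edgeR BH adjusted p = 0.00510), under the fold limit, and -0.06 and -0.00 at 4 and 10 Hz. Ccdc85b and the last exons of Fosl1 lie on opposite strands and share 1163 exon bases, and Ccdc85b was at 31.1 CPM in control and 30.7 CPM at 4 Hz.

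Jun encodes c-Jun, the strongest activator of the Jun family, which acts on its own promoter through the Jun-type TRE shown above. Jun ranged from 188 to 261 CPM in control (median 232), 156 to 189 CPM at 1 Hz (median 169), 99.1 to 151 CPM at 4 Hz (median 126), and 138 to 186 CPM at 10 Hz (median 172). All 4 Hz and all 10 Hz libraries lay below every control library, as did 5 of the 6 1 Hz libraries, and all 4 Hz libraries lay below every 1 Hz library. The mean was 234 CPM (SD 26.6) in control, 171 CPM (SD 14.5) at 1 Hz, 127 CPM (SD 20.5) at 4 Hz, and 165 CPM (SD 20.4) at 10 Hz, with n = 6 in each.

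Jun fell by 0.88 on the log2 scale at 4 Hz (SE 0.10, edgeR BH adjusted p = 6.31e-07), to 54.5% of control. At 1 Hz its log2 fold change was -0.45 (SE 0.10, edgeR BH adjusted p = 0.00126) and at 10 Hz -0.50 (SE 0.10, edgeR BH adjusted p = 0.00462), and both passed the adjusted p but not the fold limit. The 1 Hz value passed it on total count scaling (-0.53). The 10 Hz value was -0.499 before rounding and passed the limit on total count scaling (-0.53), on log2(TPM + 1) (-0.60), and in 11 of the 24 fits that left out a library. The 1 and 10 Hz levels did not differ beyond their spread (log2 difference -0.05, 95% interval -0.26 to 0.16), and 4 Hz lay below 1 Hz by 0.43 on the log2 scale (edgeR BH adjusted p = 0.00702). Junos, the antisense RNA that shares 528 exon bases with Jun, stayed at 1.25 to 1.88 CPM on average in the 4 conditions.

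Junb encodes a weaker activator that can restrain c-Jun and is known in muscle for a role in fiber size. Junb ranged from 154 to 249 CPM in control (median 224), 193 to 350.3 CPM at 1 Hz (median 275), 340.1 to 582 CPM at 4 Hz (median 394), and 204 to 302 CPM at 10 Hz (median 242). All 4 Hz libraries lay above every control library and above every 10 Hz library, and 3 of the 1 Hz libraries lay above every control library. Those 3 1 Hz libraries held 350.3, 323, and 328 CPM, and the other 3 held 193, 215, and 226 CPM.

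Junb rose by 0.94 on the log2 scale at 4 Hz (SE 0.15, edgeR BH adjusted p = 3.53e-05), a 1.92-fold change to 416 ± 89.2 CPM from 217 ± 37.1 CPM (SD, n = 6). At 1 Hz the log2 fold change was 0.33 (95% interval 0.01 to 0.65, edgeR BH adjusted p = 0.0941) and at 10 Hz 0.17 (95% interval -0.14 to 0.49). The 4 Hz level was above that at 1 Hz by 0.61 on the log2 scale (edgeR BH adjusted p = 0.00948) and the 10 Hz level below that at 4 Hz by 0.77 (edgeR BH adjusted p = 0.000985). The first of these missed the fold limit without 4 Hz library 6, the highest, and on log2(TPM + 1), at 0.497 each. Prdx2, a peroxide-reducing enzyme on the opposite strand that shares 173 exon bases with Junb, was also higher at 4 Hz (265 to 423 CPM, log2 fold change 0.67, edgeR BH adjusted p = 1.79e-06). Whether the counting used strand is not given in the sources used here, and the part of shared reads was not tested.

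Jund encodes JunD, which is made in most resting cells and is the least inducible Jun protein. Jund ranged from 126 to 219.99 CPM in control (median 163), 169 to 327 CPM at 1 Hz (median 242), 161 to 283 CPM at 4 Hz (median 187), and 111 to 217 CPM at 10 Hz (median 153). Of the 1 Hz libraries 4 lay above every control library, and the other 2 lay inside the control range. Jund rose by 0.55 on the log2 scale at 1 Hz (SE 0.17, edgeR BH adjusted p = 0.0132) and was lower at 10 Hz than at 1 Hz by 0.64 (SE 0.17, edgeR BH adjusted p = 0.00437). The log2 fold changes at 4 and 10 Hz against control were 0.26 (95% interval -0.09 to 0.61) and -0.09 (95% interval -0.44 to 0.26). The call at 1 Hz missed the fold limit without control library 6 (0.48), without 1 Hz library 4 (0.44) or 6 (0.48), on total count scaling (0.47), with apeglm (0.47), and on log2(TPM + 1) (0.45).

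Atf3 encodes a stress-inducible factor of the ATF and CREB group that is also a target of ATF4. Atf3 ranged from 79.95 to 128 CPM in control (median 108), 126 to 178 CPM at 1 Hz (median 161), 103 to 130.5 CPM at 4 Hz (median 114), and 80.3 to 102 CPM at 10 Hz (median 91.9). Of the 1 Hz libraries 5 lay above every control library, and all 10 Hz libraries lay below every 1 Hz and every 4 Hz library. Atf3 rose by 0.58 on the log2 scale at 1 Hz (SE 0.10, edgeR BH adjusted p = 7.30e-05), to 158 ± 21.4 CPM from 105 ± 15.5 CPM (SD, n = 6), and was lower at 10 Hz than at 1 Hz by 0.79 (SE 0.10, edgeR BH adjusted p = 1.90e-06). At 4 Hz the log2 fold change was 0.13 (95% interval -0.07 to 0.33) and at 10 Hz -0.21 (95% interval -0.41 to -0.00), neither of them called. On log2(TPM + 1) the 1 Hz value was 0.498, just under the fold limit.

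Maff and Mafk encode small Maf proteins. Mafk ranged from 102 to 132 CPM in control (median 113), 143 to 196 CPM at 1 Hz (median 169), 131 to 161 CPM at 4 Hz (median 143), and 111 to 130.4 CPM at 10 Hz (median 127). Every 1 Hz library lay above every control and every 10 Hz library, and 5 of the 6 4 Hz libraries lay above every control library. Mafk rose by 0.56 on the log2 scale at 1 Hz (SE 0.08, edgeR BH adjusted p = 2.67e-05), and its log2 fold change of 0.33 at 4 Hz (SE 0.08, edgeR BH adjusted p = 0.00304) was under the fold limit. At 10 Hz it was 0.08 (95% interval -0.09 to 0.26). Total count scaling put the 1 Hz change at 0.48 and limma on log2(TPM + 1) at 0.49, both just under the fold limit.

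Maff, by contrast, was called in 0 of the 6 comparisons, at an unadjusted p below 0.05 in none, and by neither DESeq2 nor limma. It ranged from 164 to 198 CPM in control, 175 to 219 CPM at 1 Hz, 159 to 208 CPM at 4 Hz, and 156 to 209 CPM at 10 Hz, with overlap throughout, although 4 of the 1 Hz libraries lay above every control library. Its log2 fold changes against control were 0.12 (95% interval -0.05 to 0.28), -0.03 (-0.20 to 0.14), and -0.00 (-0.17 to 0.16) at 1, 4, and 10 Hz.

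Levels of different genes were compared per length, on the TPM scale. Over the 24 libraries Junb was the most abundant of the 10 (mean 235 TPM), followed by Jund (171), Maff (145), Atf3 (111), Jun (79.5), Mafk (71.3), Fosl1 (69.5), and Fosl2 (43.1). Fos (11.5 TPM) and Fosb (10.6 TPM) were the least abundant, with 35 to 234 and 74 to 691 counts per library, so their values carry the most counting error. Among the summed TPM of the Fos family, Fosl1 and Fosl2 together held most of the pool in every library. The share of Fos was 15.01 ± 2.87% in control, 5.78 ± 2.46% at 1 Hz, 4.07 ± 0.914% at 4 Hz, and 7.66 ± 3.55% at 10 Hz (SD, n = 6). The share of Fosb was 6.997 ± 1.93%, 11.9 ± 2.34%, 5.29 ± 1.20%, and 5.69 ± 1.66% in the same order (SD, n = 6).

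**Figure D3:**
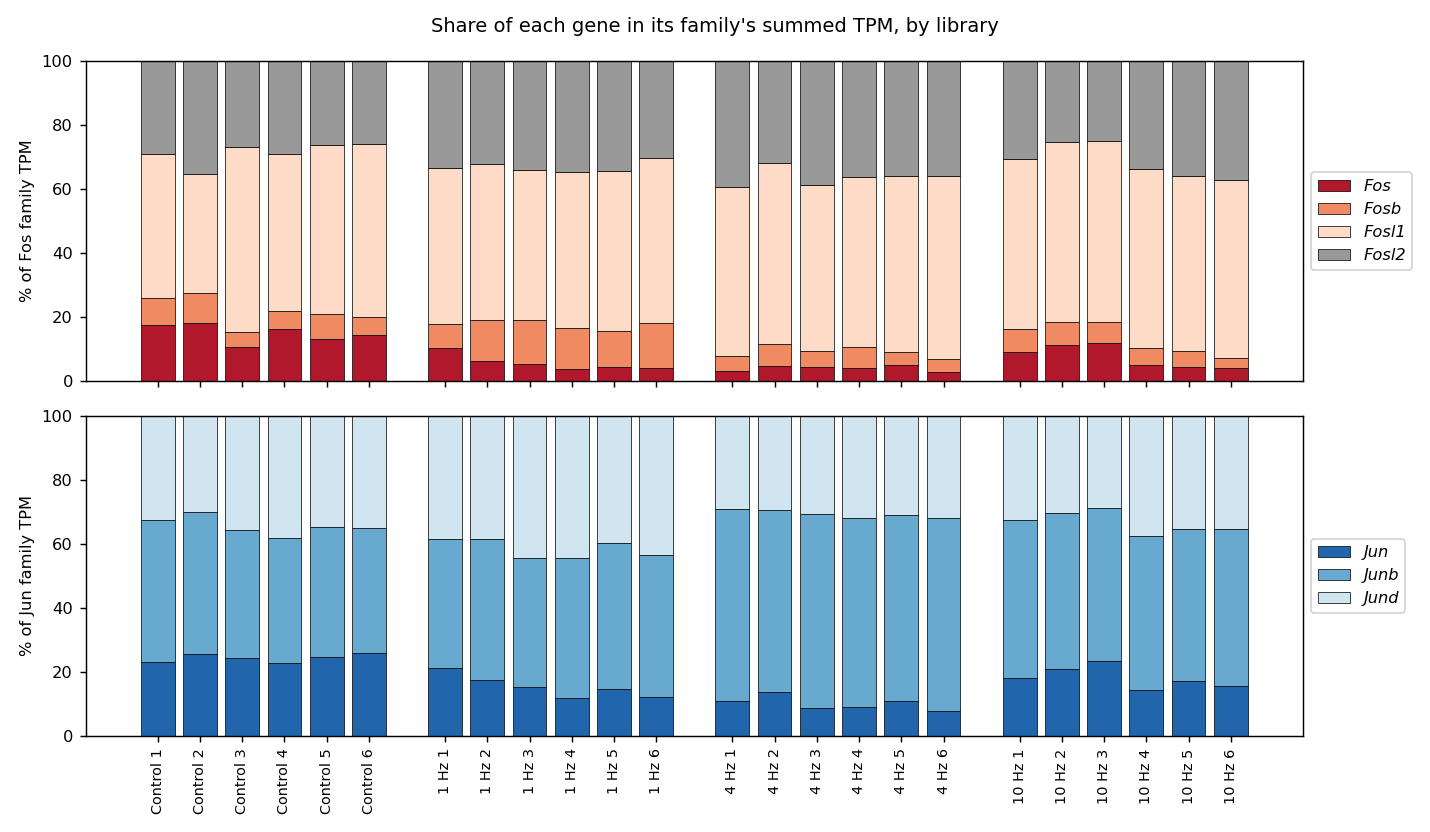
Share of each gene (y axis, percent) in the summed TPM of the Fos family (top) and the Jun family (bottom) in each library (x axis). In the bottom panel Junb takes 56.8 to 60.7% in the 4 Hz libraries and 39.1 to 44.5% in control.

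In the Jun family the share of Jun was 24.3 ± 1.33% in control, 15.4 ± 3.49% at 1 Hz, 10.1 ± 2.20% at 4 Hz, and 18.1 ± 3.38% at 10 Hz (SD, n = 6). That of Junb was 41.3 ± 2.52%, 43.0 ± 2.28%, 59.1 ± 1.45%, and 48.4 ± 0.757% (SD, n = 6), and that of Jund 34.4 ± 2.82%, 41.6 ± 2.93%, 30.7 ± 1.17%, and 33.4 ± 3.42% (SD, n = 6). The Junb share of every 4 Hz library lay above that of every other library, and the Jun share of every 4 Hz library lay below that of every control library. The summed TPM of the Fos family was 149.9 ± 13.2 in control, 158 ± 21.6 at 1 Hz, 101 ± 10.2 at 4 Hz, and 130 ± 14.1 at 10 Hz (SD, n = 6). That of the Jun family was 462 ± 70.6, 529 ± 107, 540 ± 91.6, and 412 ± 53.3 (SD, n = 6). The ratio of Jun to Fos family TPM was 3.08 ± 0.341 in control, 3.35 ± 0.475 at 1 Hz, 5.36 ± 0.825 at 4 Hz, and 3.23 ± 0.658 at 10 Hz (SD, n = 6). Its lowest 4 Hz value of 4.29 lay above the highest of the other conditions, 4.21 at 10 Hz. On CPM per gene length in place of TPM, the Junb share at 4 Hz was 52.3% and its share in control 34.5%. The order of Junb and Jund depended on this choice. On CPM per gene length Jund held the larger share in control (37.5%) and at 1 Hz (45.8%, against 36.4% for Junb). Junb held the larger share at 4 Hz (Jund 35.5%) and at 10 Hz (41.4%, against 37.3% for Jund).

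Members were also compared by how they varied together among libraries, described here by Pearson r of log2 CPM with no test. Libraries share their depth and preparation across genes. Over all 24 libraries Fos ran with Jun (r = 0.87) and against Junb (r = -0.73), and Atf3 ran with Mafk (r = 0.81). After subtracting the mean of each condition, the highest values were those of Junb with Jund (r = 0.89), Jun with Maff (r = 0.84), and Junb with Mafk (r = 0.74), whereas Fos with Fosb had r = 0.55 and Fos with Jund r = -0.58. Junb and Jund have the highest GC content of the 10, at 62.6 and 67.2% of the canonical transcript, above 98.8 and 99.9% of the genes tested. A fit with a GC content and length offset gave Junb a log2 fold change of 0.93 at 4 Hz and Jund 0.50 at 1 Hz, the latter just under the fold limit.

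**Figure D4:**
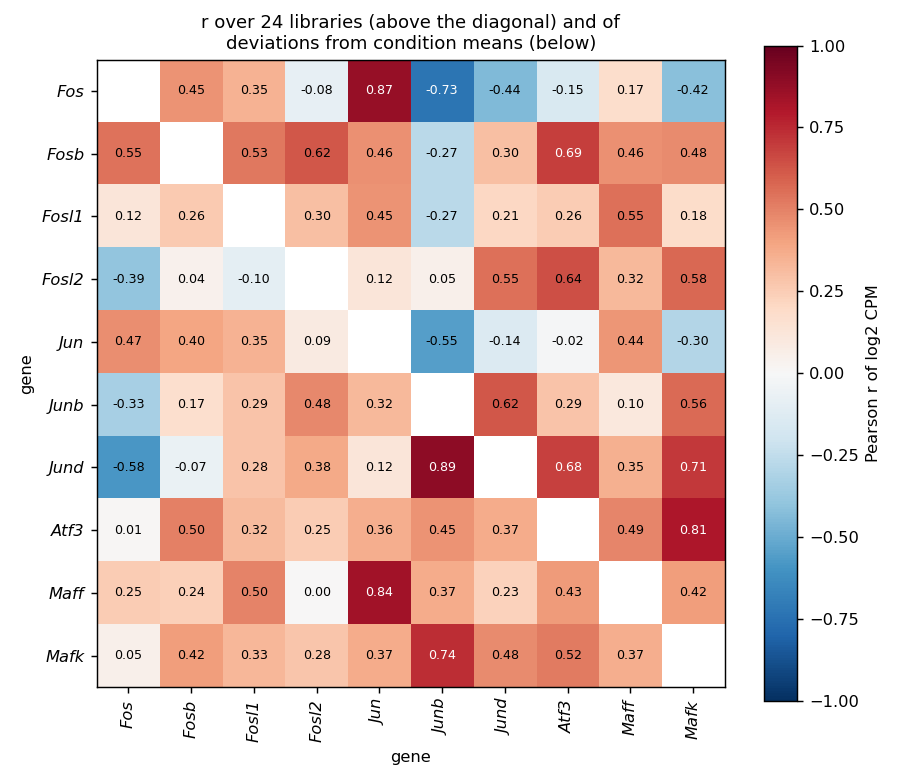
Pearson r of log2 CPM (color, with values) for each pair of AP-1 genes (both axes) over 24 libraries above the diagonal, and after subtracting condition means below it. Junb with Jund reached 0.89 within conditions and 0.62 over all libraries.

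For each member the 3 genes of most similar pattern were found among the 10576 genes whose mean reached 5 CPM, across all 24 libraries. Those of Fos were Chp1 (r = 0.93), Ccn1 (r = 0.92), a secreted matrix protein, and Dusp6 (r = 0.92), a phosphatase of ERK kinases. Those of Fosb were Dusp5 (r = 0.88), Sgk1 (r = 0.88), and Phactr4 (r = 0.88), and those of Atf3 were Tmem43 (r = 0.90), Ndrg1 (r = 0.89), and Fzd4 (r = 0.88). Jun was most like Krt19 (r = 0.95), Junb most like Ndufb7 (r = 0.95), and Jund most like Rcc2 (r = 0.94). On deviations from condition means the closest genes were Hsph1 to Fos (r = 0.85), Slc19a2 to Fosb (r = 0.74), Myc to Fosl1 (r = 0.86), Foxo3 to Fosl2 (r = 0.88), Cebpb to Jund (r = 0.95), and Rpl4 to Atf3 (r = 0.80).

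Partners and inputs of AP-1 were counted from fixed lists, and the called shares of all genes given above for each comparison apply to them too. Of 16 other bZIP partners 9 were tested, and Jdp2, which pairs with Jun and represses AP-1, was the one called against control by edgeR. On log2(TPM + 1) limma also called Nfe2l1 higher at 1 Hz (log2 fold change 0.57). The Jdp2 mean was 23.7 CPM in control, 39.3 CPM at 1 Hz (log2 fold change 0.73, SE 0.16, edgeR BH adjusted p = 0.00100), and 40.9 CPM at 4 Hz (0.78, SE 0.16, edgeR BH adjusted p = 0.000409). At 10 Hz 0 of 9 were called, and 0 had an unadjusted p below 0.05 or were called by DESeq2 or limma. Of 18 kinases of the MAPK cascades tested, which phosphorylate Fos and Jun proteins, 0 were called at 1 or 10 Hz (5 at each had an unadjusted p below 0.05, and DESeq2 and limma called 0). At 4 Hz 1 of 18, Map3k1, a kinase upstream of JNK, was lower (8.85 to 6.17 CPM, log2 fold change -0.53, edgeR BH adjusted p = 0.00767). Of all genes 9.61% were called lower at 4 Hz. DESeq2 and limma each called 1 kinase lower there, and DESeq2 with apeglm called 0. Of 13 factors that act on the Fos and Jun promoters, edgeR called Mef2c alone against control, higher at 1 Hz (79.5 to 141 CPM, log2 fold change 0.82, edgeR BH adjusted p = 0.000664) and at 4 Hz (148 CPM, 0.90, edgeR BH adjusted p = 0.000209). On log2(TPM + 1) limma also called Crem lower at 1 Hz (-0.57), and Elk3 (-0.55) and Elk4 (-0.60) lower at 4 Hz. At 10 Hz 0 of 13 were called (4 had an unadjusted p below 0.05, and DESeq2 and limma called 0). Srf, Elk1, and Creb1, textbook regulators of Fos, were among those not called.

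Genes known as AP-1 targets went in both directions. Of 25 tested, 5 were higher and 1 lower at 1 Hz, 7 higher and 2 lower at 4 Hz, and 4 higher and 0 lower at 10 Hz (1 had an unadjusted p below 0.05 and a lower value there, and DESeq2 and limma called 0 lower). On log2(TPM + 1) limma called 4 higher and 6 lower at 4 Hz, so the balance of directions there depended on the scale. Of all genes 18.3%, 20.1%, and 1.86% were called at 1, 4, and 10 Hz. The median log2 fold change of these targets was 0.26, -0.11, and 0.03. Mmp10, a matrix protease, was low throughout, with a control mean of 2.06 CPM, and fell to 0.635 CPM at 1 Hz and 0.279 CPM at 4 Hz (log2 fold change -2.79, SE 0.71, edgeR BH adjusted p = 0.00286). Il6, an inflammatory cytokine, rose at 10 Hz from 2.20 to 5.64 CPM (log2 fold change 1.39, SE 0.32, edgeR BH adjusted p = 0.0123).

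Other immediate-early genes were counted in the same way, since Fos and Jun fell. Of 24 tested, 8 were higher and 5 lower at 1 Hz, 3 higher and 11 lower at 4 Hz, and 1 higher and 8 lower at 10 Hz, with a median log2 fold change of -0.08, -0.45, and -0.33. The share of all genes called higher was 9.34% at 1 Hz, 10.5% at 4 Hz, and 1.24% at 10 Hz, and the share called lower was 8.99%, 9.61%, and 0.623%. Ccn1 fell at 4 Hz from 380 to 88.1 CPM (log2 fold change -2.11, SE 0.18, edgeR BH adjusted p = 2.52e-08) and at 10 Hz to 168 CPM (-1.18, SE 0.17, edgeR BH adjusted p = 0.000461). It fell at 1 Hz as well, to 181 CPM (-1.07, SE 0.17, edgeR BH adjusted p = 6.08e-05). Egr1, a zinc finger factor, fell at 10 Hz from 272 to 128 CPM (-1.09, SE 0.13, edgeR BH adjusted p = 5.03e-05). It fell at 4 Hz too, to 120 CPM (-1.18, SE 0.13, edgeR BH adjusted p = 3.28e-07), and was not called at 1 Hz. Nr4a2 fell at 4 Hz from 15.4 to 4.62 CPM (-1.71, SE 0.33, edgeR BH adjusted p = 0.000271) and at 1 Hz to 7.33 CPM (-1.12, SE 0.33, edgeR BH adjusted p = 0.0102). Arc, best known as a neuronal immediate-early gene, rose at 1 Hz from 35.4 to 176 CPM (2.31, SE 0.19, edgeR BH adjusted p = 1.57e-08). It rose at 4 Hz to 110 CPM (1.64, SE 0.18, edgeR BH adjusted p = 4.42e-07). Neither Nr4a2 nor Arc was called at 10 Hz. For 4 Hz against 1 Hz, 15 of the 24 were lower and 0 higher (0 were higher at an unadjusted p below 0.05, nor by DESeq2 or limma), where Fos and Fosb were lower as well. Of all genes 1.4% were called lower and 1.59% higher in that comparison.

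Because Atf3 is also a target of ATF4, the integrated stress response factor, 11 other ATF4 genes were counted. At 1 Hz 8 of 11 were higher (9.34% of all genes), with a median log2 fold change of 0.70, and Cebpb (71.8 to 146 CPM, 1.03, edgeR BH adjusted p = 0.000267) and Chac1 (31.3 to 61.3 CPM, 0.96, edgeR BH adjusted p = 0.00207) had the largest values. At 4 Hz 7 were higher (10.5% of all genes) and 1 lower (9.61%), with a median of 0.56, although limma on log2(TPM + 1) called only 1 higher, on a scale where the median of all genes moved to -0.16. At 10 Hz 1 was higher (Ddit4, against 1.24% of all genes) and 1 lower (Sesn2, against 0.623%), and the median was -0.00. Both had an edgeR BH adjusted p of 0.0498. DESeq2 also called 1 in each direction there, and DESeq2 with apeglm and limma on log2(TPM + 1) called 0.

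The small RNA share moved with the same contrasts in which most members were called. Over all 24 libraries r between log2 CPM and the log2 share was 0.73 for Fos, 0.59 for Jun, -0.62 for Junb, -0.64 for Jund, -0.63 for Atf3, and -0.71 for Mafk, and after subtracting condition means it was 0.62, 0.19, -0.30, -0.39, -0.21, and -0.09. Fosl2 had r = -0.51 over all libraries and -0.66 after that subtraction, the largest size of the 10 within conditions. The mitochondrial share of counts was 2.01 to 3.18% in control, 1.46 to 2.47% at 1 Hz, 1.80 to 4.71% at 4 Hz, and 2.28 to 4.79% at 10 Hz. Within conditions Junb (r = -0.68), Jun (r = -0.63), Mafk (r = -0.62), Maff (r = -0.62), Jund (r = -0.55), and Atf3 (r = -0.51) ran against it. Fosl1 had r = -0.39, Fosl2 -0.28, Fosb -0.20, and Fos 0.05. Of the 1 Hz libraries, number 1 had the highest share (67.5 CPM), the highest Fos (18.1 CPM), and the lowest Fosb (23.8 CPM). The 3 10 Hz libraries with high Fos had shares of 170.5, 265, and 99.6 CPM, and the 3 with low Fos 93.5, 63.1, and 36.0 CPM.

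**Figure D5:**
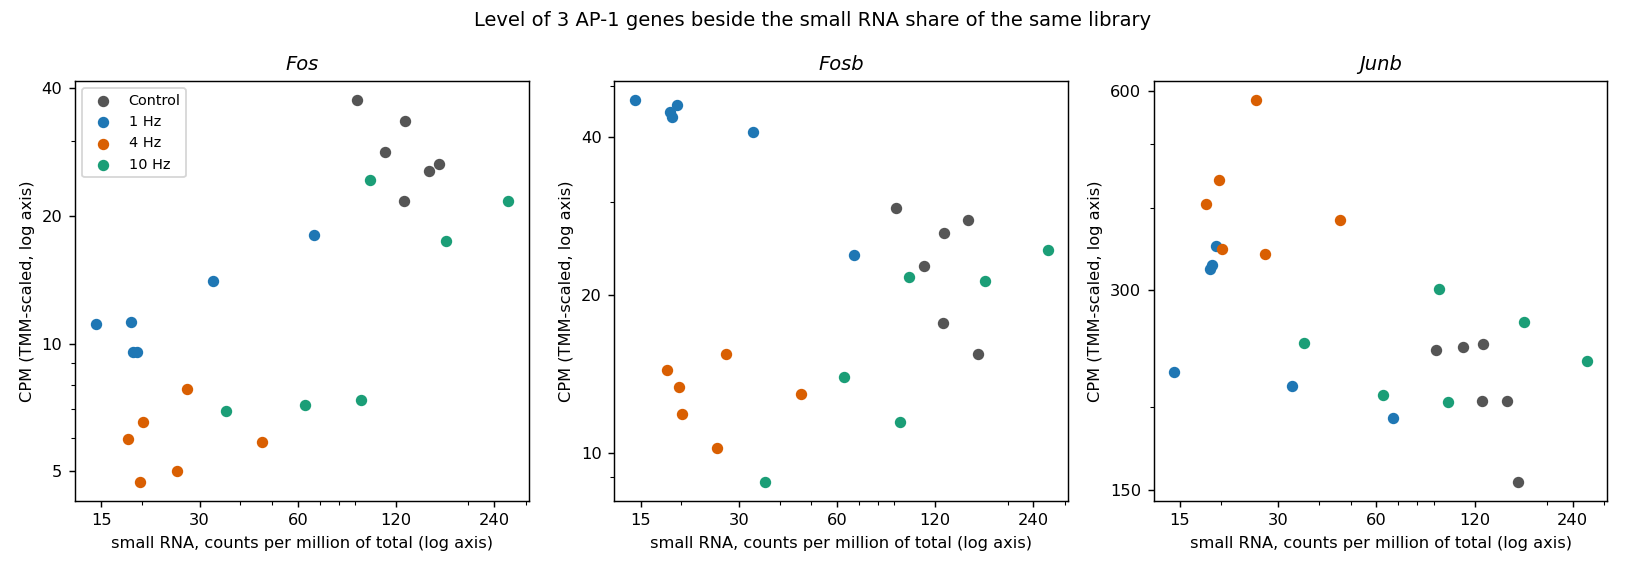
CPM of Fos, Fosb, and Junb (y axis, log) beside the small RNA share of the same library (x axis, CPM of total, log), colored by condition. The control libraries and the 1 and 4 Hz libraries do not overlap on the x axis, while the 10 Hz libraries span 36.0 to 265 CPM.

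With that share as a covariate in edgeR, 0 of 10 members were called at 1 Hz (3 at an unadjusted p below 0.05), 1 at 4 Hz, and 1 at 10 Hz. Over all 13318 genes that fit called 1 at 1 Hz, 135 higher and 89 lower at 4 Hz, and 124 higher and 81 lower at 10 Hz. At 1 Hz Fos had -0.30 (edgeR BH adjusted p = 0.849) and Jund 0.11, whereas Fosb had 1.02 (edgeR BH adjusted p = 0.290), Atf3 0.47, and Mafk 0.51. Fosl2, not called without the covariate either, went from 0.29 to 0.01 there (edgeR BH adjusted p = 0.979). Jun at 4 Hz kept its call (log2 fold change -0.75, edgeR BH adjusted p = 0.0183), Fos at 4 Hz had -1.31 (edgeR BH adjusted p = 0.0527), and Junb at 4 Hz 0.66 (edgeR BH adjusted p = 0.151). Fos at 10 Hz, where the share overlapped control, had -0.96 (edgeR BH adjusted p = 0.00892). For 4 Hz against 1 Hz, where the share also overlapped, Fosb (-1.67, edgeR BH adjusted p = 1.37e-05), Fos (-1.01, edgeR BH adjusted p = 0.00524), and Junb (0.62, edgeR BH adjusted p = 0.00695) kept their calls. That comparison had 228 higher and 182 lower calls over all genes in this fit. Fosb (-1.46, edgeR BH adjusted p = 0.0260) and Atf3 (-0.68, edgeR BH adjusted p = 0.0183) kept their calls for 10 Hz against 1 Hz, and Jund lost its call there (-0.26, edgeR BH adjusted p = 0.641). Over all genes 66 were called higher and 110 lower in that comparison. Fos (0.35) and Junb (-0.52) lost their calls for 10 Hz against 4 Hz, where 0 members were called and 2 had an unadjusted p below 0.05. The part of library preparation in the 1 Hz and 4 Hz changes against control was not tested beyond this fit, which has few libraries to separate the share from the condition.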

How the data were processed

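RNA from 24 tissues was compared, 6 per condition, grouped by sample title. Libraries were directional and paired-end after poly(A) selection, with ribodepletion of low-input samples. The authors ran the nf-core/rnaseq pipeline on GRCm39 with Ensembl genes, and deposited unnormalized estimated counts from salmon and TPM. Between 6.62% and 10.6% of estimated counts in a library were not whole. The Ensembl version is not given in the sources used here. Library totals of 4.09 M to 15.2 M counts set the counting error.

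Estimated counts were rounded. edgeR 4.0.16 (limma 3.58.1, R 4.3.3) was run with filterByExpr, TMM scaling, and the quasi-likelihood test over all 24 libraries at once, modelled on condition, and p-values were BH adjusted over 13318 genes. Calls needed both limits of the study, 0.05 on the adjusted p and 0.5 on the size of the log2 fold change (the study itself used DESeq2 with apeglm). CPM were TMM-scaled, log2 CPM used a prior count of 2, and SDs are between libraries. The members, gene lists, and named-gene rule (from each list, the called genes with the 2 largest absolute log2 fold changes per comparison) were chosen with earlier results of these data known. From these, values are printed where they bear on a member. A gene that the rule names among the AP-1 targets is not reported here. Srf, Elk1, Creb1, the genes that limma alone called, and the called cell markers were added after their values were seen. A name shared by several identifiers was left out of the lists.

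Positions, exons, and promoter sequences came from the GENCODE M39 annotation and GRCm39. Alternatives were DESeq2 size factors, total count scaling, no filter, a minimum mean of 5 CPM, DESeq2 1.42.0 without and with apeglm 1.24.0, limma with a pseudocount of 1 or 0.1 TPM (genes averaging 1 TPM or more) and with 1 TPM unfiltered, only the libraries compared, a replicate block, adjusted p alone, the log2 small RNA share as a covariate, a GC content and length offset (lowess, span 0.3, 99.8% of genes), and leaving out each library. Log2(TPM + pseudocount) understates the change of low genes. The fits were tested on simulated counts.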

Additional observations from a re-analysis of the deposited data

Results flagged for a closer look

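In the 40 groups of 6 values (10 members in 4 conditions), 2 libraries lay far from the rest of their group by Dixon's test at 95%, and chance flags about 1 group in 20. Fosb in 1 Hz library 1 was 23.8 CPM, against 40.8 to 47.0 CPM in the other 1 Hz libraries. Without that library the log2 fold change of Fosb at 1 Hz was 0.94 in place of 0.83. Jund in 4 Hz library 6 was 283 CPM, against 161 to 199.7 CPM in the other 4 Hz libraries, and Jund was not called at 4 Hz with or without it.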

How the results depend on the processing

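Over the 60 member and comparison pairs and 37 alternatives each, 2157 of 2220 fold changes kept their side of the limits, 33 calls were lost, and 30 were gained. Of those 2157, 39 were uncalled values that changed sign, and 0 called values did. For 1 Hz against control, the count of called members went from 5 to 0 with the small RNA share as covariate and to 3 on log2(TPM + 1), filtered or not. For 4 Hz against control it went from 4 to 1 with that covariate, and for 10 Hz against 4 Hz from 2 to 0. For 10 Hz against control it went from 1 to 2 on an adjusted p alone, on total count scaling, and on all 3 TPM fits, and to 0 with only the 12 libraries compared. On an adjusted p alone it went from 3 to 7 for 4 Hz against 1 Hz, from 3 to 5 for 10 Hz against 1 Hz, and from 2 to 6 for 10 Hz against 4 Hz. The share of all genes past an adjusted p alone was not counted. Leaving out each library in turn gave 4 to 5 members for 1 Hz against control, 4 to 4 for 4 Hz, 0 to 2 for 10 Hz (0 without control library 2), 2 to 4 for 4 Hz against 1 Hz, 3 to 4 for 10 Hz against 1 Hz, and 2 to 2 for 10 Hz against 4 Hz. Causes of these changes were not tested. Over all genes, the covariate fit called 0 for 10 Hz against 4 Hz (950 at an unadjusted p below 0.05), against 709 higher and 751 lower without it.

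With the replicate block the counts were 5, 4, 1, 3, 3, and 2 in the 6 comparisons, as without it. Same-numbered libraries had deviations correlated at r = -0.18 to 0.36 (10 of 36 pairs over 0.1), with a median of 0.017 against -0.013 in other pairs. Of the 24 libraries 10 correlated best with a library of their own number. The count expected by chance was not computed, so these values do not settle whether equal numbers mark a shared block. The main fits took the libraries as unpaired. Total count scaling moved the median of all genes to -0.11 at 4 Hz, and log2(TPM + 1) to -0.16. Of 28 family shares, 20 moved by more than 1 SD on CPM per gene length in place of TPM, and 0 when a library was left out. Fos and Fosb, at 35 to 691 counts per library, are the members most limited by depth.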
